A study of Mus musculus with 6 samples.

Results

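The Hox genes of the mouse were followed in whole lungs of embryos at E18.5, late gestation. The 39 Hox genes were taken from the deposited table by symbol (Hoxa, Hoxb, Hoxc or Hoxd followed by a paralogue number) out of 55359 genes. Poly(A)-selected RNA of 6 lungs was sequenced, 3 with a Prmt5 knockdown genotype label and 3 labelled wild type, all C57. Prmt5 is an arginine methyltransferase that acts on histones and splicing proteins. The design text describes a knockout of Prmt5 in lung mesenchyme that is specific to Dermo1, an older name of Twist2, whereas the sample labels and the growth protocol speak of a knockdown. The growth protocol names dams with the mesenchymal knockdown for every library, the wild type ones included. The labels do not say whether wild type embryos carried a driver or a floxed allele, nor how embryos were spread over litters, so p-values measure only the spread between these samples.

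Hox genes encode homeodomain transcription factors and lie in 4 clusters on separate chromosomes. Within a cluster, genes with low paralogue numbers are switched on earliest and farthest towards the head, and genes with high numbers later and farther towards the tail, so that the set of active Hox genes marks the position of a cell along the body. In the mouse lung, Hoxa5 is expressed in the mesenchyme and is needed for the trachea and lung to form and for newborns to breathe, and the group 5 genes together act in lung mesenchyme upstream of Wnt2, a growth signal to the airway epithelium.

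The promoters of 4 Hox genes are shown because they stand for the extremes of what follows. Hoxa5 was the most abundant member, Hoxa6 had the smallest p among the tested members, Hoxb4 was the most abundant member of its cluster, and Hoxa13 had no count in any library. Each sequence is the RefSeq window of 300 bases in GRCm38.p6, from 250 bases before the annotated start to 50 after it, written along the gene's own strand. The windows are chr6:52204538-52204837 on the minus strand for Hoxa5, chr6:52208623-52208922 on the minus strand for Hoxa6, chr11:96318017-96318316 on the plus strand for Hoxb4, and chr6:52260831-52261130 on the minus strand for Hoxa13. Capitals mark AGGTCA or its reverse complement TGACCT, the hexamer that nuclear receptors such as those for retinoic acid recognise.
Hoxa5: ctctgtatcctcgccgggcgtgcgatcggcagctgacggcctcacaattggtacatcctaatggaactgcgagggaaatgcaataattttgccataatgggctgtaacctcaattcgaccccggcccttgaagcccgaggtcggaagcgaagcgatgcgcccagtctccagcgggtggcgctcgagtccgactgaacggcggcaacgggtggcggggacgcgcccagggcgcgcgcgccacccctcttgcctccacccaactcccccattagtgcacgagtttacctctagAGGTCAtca
Hoxa6: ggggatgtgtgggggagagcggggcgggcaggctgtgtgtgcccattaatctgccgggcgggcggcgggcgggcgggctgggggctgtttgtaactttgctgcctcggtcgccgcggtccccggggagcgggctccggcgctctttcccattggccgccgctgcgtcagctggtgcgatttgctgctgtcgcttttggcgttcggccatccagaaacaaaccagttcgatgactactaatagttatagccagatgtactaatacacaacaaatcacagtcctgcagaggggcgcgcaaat
Hoxb4: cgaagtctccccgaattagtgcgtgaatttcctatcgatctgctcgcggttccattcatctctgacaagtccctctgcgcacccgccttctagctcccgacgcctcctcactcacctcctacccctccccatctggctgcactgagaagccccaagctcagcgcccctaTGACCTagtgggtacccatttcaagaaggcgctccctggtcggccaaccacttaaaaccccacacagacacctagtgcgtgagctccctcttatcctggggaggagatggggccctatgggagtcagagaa
Hoxa13: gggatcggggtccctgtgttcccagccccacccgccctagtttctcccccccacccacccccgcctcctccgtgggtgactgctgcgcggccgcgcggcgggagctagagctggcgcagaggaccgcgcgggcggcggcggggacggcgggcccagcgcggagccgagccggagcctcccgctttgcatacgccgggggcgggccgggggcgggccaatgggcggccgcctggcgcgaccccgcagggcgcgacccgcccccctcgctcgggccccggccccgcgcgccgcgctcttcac
The silent Hoxa13 had the most CpG dinucleotides of the 4 windows, 45, against 29 for Hoxa5, 26 for Hoxa6 and 14 for Hoxb4. RefSeq windows were found for 22 of the 39 members, 24 windows in all because 2 genes have 2 starts, and their median was 14.5 CpG (4 to 45), against 7 over 32851 mouse promoters (quartiles 3 and 20). AGGTCA stood on either strand in 7 of the 24 Hox windows and in 16.3% of all windows. TGATTNAT, the site that Pbx and Hox proteins share, stood in 2 of the 24 and in 3.22% of all, and TTTATG, a sequence bound by high-numbered Hox proteins, in 5 of the 24 and in 11.9% of all. These matches describe letters in the windows and not binding.

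Libraries held 14383415 to 19262837 counts, so 3 counts, taken as the floor, came to 0.156 to 0.209 CPM (counts scaled to equal library totals). This floor covers counting error only. Prmt5 itself stood at 10.06, 11.85 and 12 FPKM (fragments per kilobase of exon, scaled to the library's total count) in the knockdown-labelled lungs, against 11.68, 11.77 and 12.24 FPKM in wild type lungs, a log2 fold change of −0.08 (95% interval −0.29 to 0.13, edgeR adjusted p = 0.682). The count covers the whole gene in the whole lung, so a loss restricted to some cells cannot be told apart from none. Twist2, the gene that Dermo1 names, had 0.33, 0.28 and 0.47 FPKM in the knockdown-labelled lungs, against 0.81, 0.64 and 0.97 FPKM in wild type lungs (log2 fold change −1.14, adjusted p = 0.163). Markers of lung mesenchyme, epithelium and endothelium were counted in every library, with none of the 14, 12 and 10 listed genes at 0 throughout. Some libraries stood apart in markers of other tissues. The summed CPM of 15 heart muscle genes was 4400, 13109 and 3454 in the knockdown-labelled lungs, against 518, 641 and 3023 in wild type lungs, so wild type replicate 3 lay near the knockdown-labelled range. The summed CPM of 9 stomach and oesophagus genes was 23.0, 26.1 and 522 in the knockdown-labelled lungs, against 15.3, 13.3 and 484 in wild type lungs, high in 1 library of each group. Replicate numbers follow the order of deposit and pair no libraries. By Xist and Ddx3y, 2 of 3 knockdown-labelled embryos and 1 of 3 wild type embryos were male.

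The lungs expressed the low and middle paralogue groups of the Hoxa and Hoxb clusters and very little else. A mean of at least 1 FPKM over the 6 libraries was reached by 13 members, all of them Hoxa or Hoxb genes, among them Hoxa2 to Hoxa7 and Hoxb2 to Hoxb7. Hoxa and Hoxb genes together made up 95.5% of the summed Hox FPKM in the knockdown-labelled lungs and 97.5% in wild type lungs. Hoxc and Hoxd genes added 4.47% in the knockdown-labelled lungs and 2.52% in wild type lungs. No Hoxc or Hoxd gene reached a mean of 1 FPKM.

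**Figure D1:**
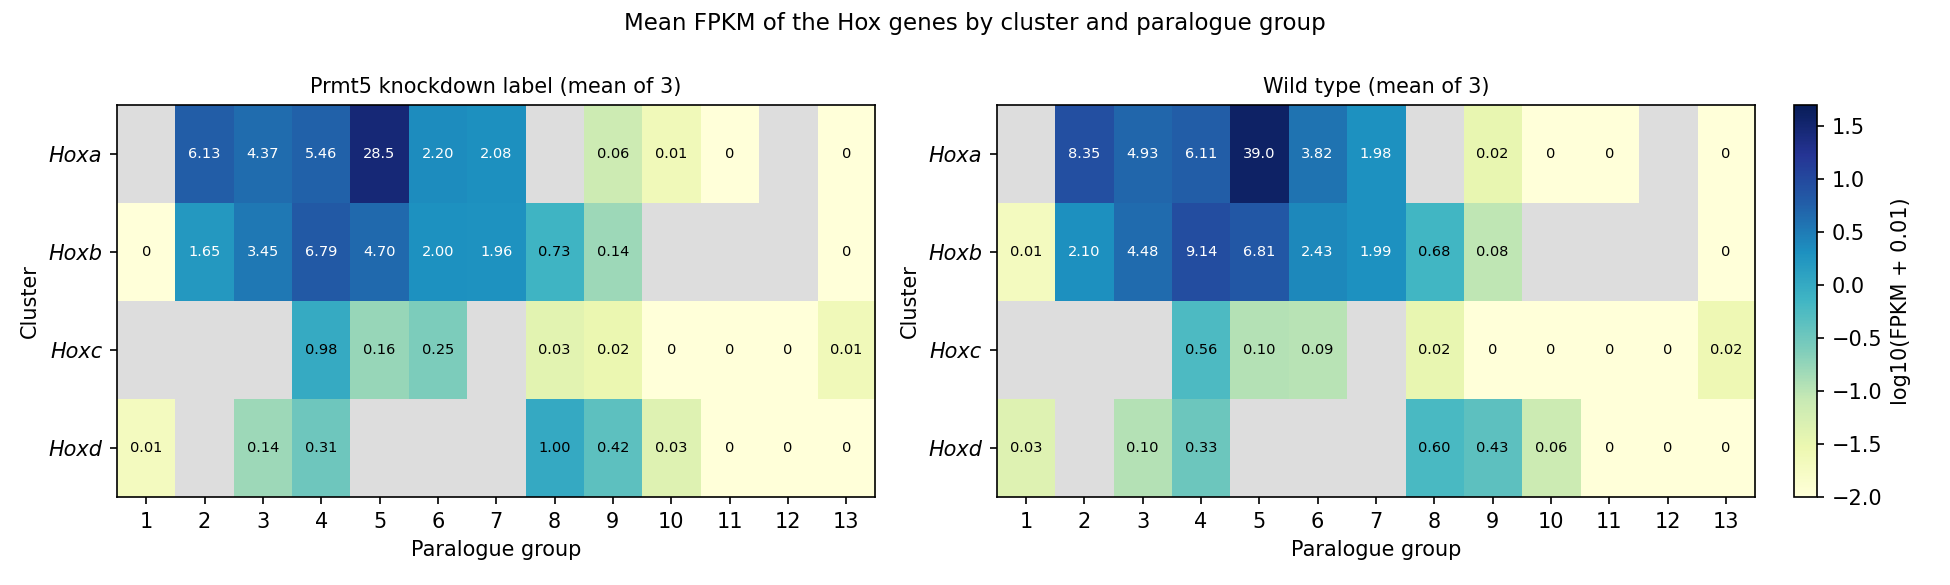
Mean FPKM of the Hox genes by cluster (rows) and paralogue group (columns) in knockdown-labelled lungs (left panel, n = 3) and wild type lungs (right panel, n = 3). Colour is log10(FPKM + 0.01), the number in a cell is the mean FPKM, and grey cells have no gene or no value reported here. In both panels the dark cells are Hoxa2 to Hoxa7 and Hoxb2 to Hoxb7, and Hoxa5 is the darkest at 28.5 and 39.0 FPKM.

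The edge of the expressed stretch was sharp in the Hoxa cluster. Hoxa7 averaged 2.03 FPKM over the 6 libraries, and its neighbour Hoxa9, with 1245 bases between the gene bodies, averaged 0.0417 FPKM. Hoxa9 had 8, 2 and 7 counts in the knockdown-labelled lungs, against 3, 1 and 3 in wild type lungs. Hoxa10 had 1, 1 and 0 counts in the knockdown-labelled lungs and none in wild type lungs, and Hoxa11 and Hoxa13 had none in any library. The position of this edge was the same in both groups.

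In the Hoxb cluster, on chromosome 11 from 96085142 to 96259082 in the table's coordinates, with no build named, the decline was more gradual. Hoxb7 averaged 1.97 FPKM over the 6 libraries, its neighbour Hoxb8 0.705 FPKM across a gap of 1307 bases, and Hoxb9 had 4, 2 and 14 counts in the knockdown-labelled lungs, against 1, 6 and 3 in wild type lungs. Hoxb13, at the far end, had no count in any library. At the other end Hoxb1, a hindbrain gene, had a single count in 1 wild type library and none elsewhere.

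By paralogue group, group 5 was the highest. Its 3 genes summed to 28.2, 37.2 and 34.7 FPKM in the knockdown-labelled lungs, against 49.1, 47.7 and 40.7 FPKM in wild type lungs. The sum was 44.5% of all Hox FPKM in the knockdown-labelled lungs and 47.8% in wild type lungs. Group 4 followed at 13.5 ± 2.11 FPKM in the knockdown-labelled lungs and 16.1 ± 0.789 FPKM in wild type lungs (SD, n = 3 each). Groups 3 and 2 came next. They stood at 7.97 ± 1.47 and 7.77 ± 1.41 FPKM in the knockdown-labelled lungs and 9.51 ± 1.17 and 10.4 ± 0.654 FPKM in wild type lungs. Group 2 was above group 3 in every wild type lung, whereas their order differed among the knockdown-labelled lungs. Groups 6 and 7 stood at 4.44 ± 0.458 and 4.03 ± 0.471 FPKM in the knockdown-labelled lungs, within the spread of each other, and at 6.34 ± 0.346 and 3.97 ± 0.470 FPKM in wild type lungs, where they did not overlap. Group 8 averaged 1.76 FPKM in the knockdown-labelled lungs and 1.31 FPKM in wild type lungs. The groups from 9 to 13, which pattern the hind body, limbs and genitals, hold 16 of the 39 genes and summed to 0.707 ± 0.0493 FPKM in the knockdown-labelled lungs and 0.620 ± 0.125 FPKM in wild type lungs.

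Of the 39 members, 9 had no count in any of the 6 libraries: Hoxa11, Hoxa13, Hoxb13, Hoxc10, Hoxc11, Hoxc12, Hoxd11, Hoxd12 and Hoxd13. Known roles of several of these genes are in the limb, kidney, genital tract and tail. A further 12 were counted but stayed below the filter on low counts, and 18 were tested. The filter keeps a gene that is counted well enough in 3 libraries, so the 18 are not a sample of all members.

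Set against wild type lungs, most of the expressed Hoxa and Hoxb genes had lower values in the knockdown-labelled lungs, and none passed the adjusted threshold. The sum over all 39 Hox genes was 66.2, 75.6 and 82.6 FPKM in the knockdown-labelled lungs, against 101, 98.5 and 88.1 FPKM in wild type lungs, with no overlap. Hoxa5 alone gave 23.9, 32.4 and 29.2 FPKM of it in the knockdown-labelled lungs, against 41.3, 40.6 and 35.0 FPKM in wild type lungs. Without Hoxa5 the sums overlapped. In edgeR's quasi-likelihood test, 0 of the 18 tested members had an adjusted p under 0.05, where the share of all 17728 genes tested was 0.0338%. At an unadjusted p under 0.05, 6 of the 18 (33.3%) were lower and 0 were higher, against 8.52% lower and 8.48% higher among all genes tested. Groups did not overlap, with lower values in the knockdown-labelled lungs, for 7 of the 18 (38.9%), against 12.4% of all genes tested, and none stood higher without overlap, against 10.8% of all. The log2 fold change was negative for 14 of the 18 (77.8%), against 47.1% of all genes tested. The median log2 fold change was −0.22 over the 18, against 0.01 over all genes tested. The 18 genes share clusters, tissue and libraries, so their shared sign is not a set of independent results.

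These counts depended on the setting. DESeq2 called 1 Hox gene, Hoxa5, at an adjusted p of 0.0463, where it called 2.49% of genes lower and 2.04% higher. The 6 genes at an unadjusted p under 0.05 became 3 without wild type replicate 1, 2 with the mean log2 CPM of neuron and Schwann cell markers as a covariate, and 0 with that of heart muscle or of lung mesenchyme markers. Among all genes tested, the number at that p fell too, from 3015 to 1663, 1700, 1335 and 886 in the same order of settings. The means of heart muscle and of lung mesenchyme markers did not overlap between the groups, so label and list cannot be told apart there. In whole lung, fewer cells of a type and less RNA per cell cannot be told apart.

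**Figure D2:**
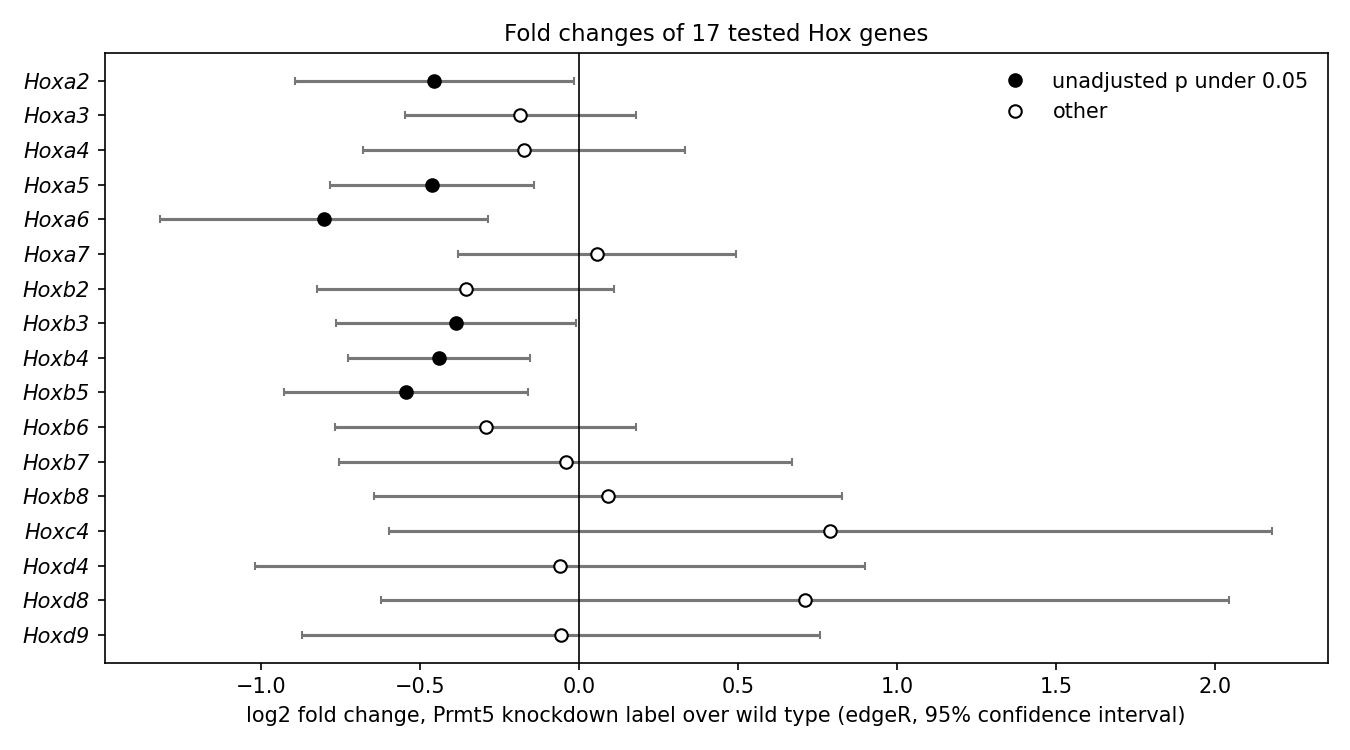
Log2 fold change (x axis, knockdown-labelled over wild type lungs, edgeR) with its 95% confidence interval for 17 of the 18 tested Hox genes (y axis, in cluster order). Filled points have an unadjusted p under 0.05, and all 6 of them lie left of 0, while the intervals of Hoxc4 and Hoxd8 are the widest of those shown and span 0.

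Hoxa5 was the most abundant Hox gene in each of the 6 libraries. It had 23.9, 32.4 and 29.2 FPKM in the knockdown-labelled lungs, against 41.3, 40.6 and 35.0 FPKM in wild type lungs. Every knockdown-labelled lung was below every wild type lung, with replicate 1 of the knockdown-labelled group the lowest. The log2 fold change was −0.46 (95% interval −0.78 to −0.14, unadjusted p = 0.0111, adjusted p = 0.189 in edgeR). By mean FPKM it ranked 1359th of all genes in the table. Its exons share no base with another gene annotated in GENCODE M21.

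Hoxb5, which acts with Hoxa5 in mouse airway branching, had 4.12, 4.64 and 5.35 FPKM in the knockdown-labelled lungs, against 7.75, 7.06 and 5.61 FPKM in wild type lungs. The groups did not overlap, but the highest knockdown-labelled lung and the lowest wild type lung were close. The log2 fold change was −0.55 (−0.93 to −0.16, adjusted p = 0.191). The group 5 gene of the Hoxc cluster, Hoxc5, known in the mouse for a role in motor neurons of the diaphragm, had 9, 6 and 11 counts in the knockdown-labelled lungs, against 2, 4 and 8 in wild type lungs, and was too low to test. Hoxa5 and Hoxb5 were thus lower without overlap, whereas the Hoxc5 counts overlapped. Wnt2, the mesenchymal signal named above, had 15.7, 15.1 and 13.95 FPKM in the knockdown-labelled lungs, against 25.5, 22.0 and 20.5 FPKM in wild type lungs (log2 fold change −0.61, adjusted p = 0.112).

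Hoxb4, known in mouse blood stem cells, was the most abundant Hoxb gene. It had 7.50, 5.74 and 7.12 FPKM in the knockdown-labelled lungs, against 9.89, 8.89 and 8.65 FPKM in wild type lungs. The groups did not overlap, and replicate 2 of the knockdown-labelled group was the lowest of the 6. Its log2 fold change was −0.44 (−0.73 to −0.16, unadjusted p = 0.00805, adjusted p = 0.174). Its Hoxa paralogue Hoxa4 had 3.94, 5.54 and 6.90 FPKM in the knockdown-labelled lungs, against 6.48, 5.89 and 5.97 FPKM in wild type lungs, and these overlapped because replicate 3 of the knockdown-labelled group was the highest of all.

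Hoxa6 had the largest negative fold change among the tested members. It had 1.99, 1.99 and 2.61 FPKM in the knockdown-labelled lungs, against 3.71, 4.06 and 3.68 FPKM in wild type lungs, from 28, 25 and 44 counts and from 53, 51 and 50 counts. The gap between the groups was wider than the range within either. The log2 fold change was −0.80 (−1.32 to −0.29, unadjusted p = 0.00792, adjusted p = 0.172, the smallest adjusted p of the members). Hoxb6 also stood lower without overlap, at 2.12, 1.91 and 1.96 FPKM in the knockdown-labelled lungs, against 2.93, 2.16 and 2.19 FPKM in wild type lungs (log2 fold change −0.30, adjusted p = 0.504).

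Among the low-numbered genes, Hoxa2, which sets the identity of a pharyngeal arch, had 4.58, 6.34 and 7.46 FPKM in the knockdown-labelled lungs, against 8.44, 8.66 and 7.94 FPKM in wild type lungs. The groups did not overlap, and the knockdown-labelled lungs were far more spread. Its log2 fold change was −0.46 (−0.90 to −0.02, adjusted p = 0.282). Hoxb2, a hindbrain gene, had 1.83, 1.35 and 1.76 FPKM in the knockdown-labelled lungs, against 1.88, 2.49 and 1.92 FPKM in wild type lungs (log2 fold change −0.36, adjusted p = 0.408). Its groups did not overlap, but the highest knockdown-labelled lung and the lowest wild type lung were close.

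Hoxb3 had 3.13, 3.30 and 3.93 FPKM in the knockdown-labelled lungs, against 4.49, 5.23 and 3.72 FPKM in wild type lungs. These overlapped, since replicate 3 was lowest in wild type and highest in the knockdown-labelled group. The log2 fold change was −0.39 (−0.76 to −0.01, adjusted p = 0.284), and 52.9% of Hoxb3's exonic bases lie opposite Hoxb3os, so its count is uncertain where the strand setting is not given. The strand limit also holds for Hoxb2 (27.3% of exonic bases), Hoxa3 (25.4%), Hoxa7 (20.4%), Hoxa4 (15.9975%) and Hoxb5 (3.59%). Hoxa2 shares 15.04% of its exonic bases, and Hoxa3 a further 8.01%, with another gene on the same strand.

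The other expressed members overlapped between groups. Hoxa3, needed for the thymus and parathyroid, had a log2 fold change of −0.19, and Hoxa4 one of −0.17. Group 7, the last expressed in both clusters, stayed near 0. Hoxa7 had 1.75, 2.44 and 2.04 FPKM in the knockdown-labelled lungs, against 2.00, 1.98 and 1.97 FPKM in wild type lungs, a log2 fold change of 0.06 with an interval of −0.38 to 0.49. Hoxb7 had 2.57, 1.85 and 1.45 FPKM in the knockdown-labelled lungs, against 2.45, 1.98 and 1.54 FPKM in wild type lungs, a log2 fold change of −0.04 with an interval of −0.76 to 0.67. The Hoxb7 interval includes the −0.46 of Hoxa5, and the Hoxa7 interval ends short of it.

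**Figure D3:**
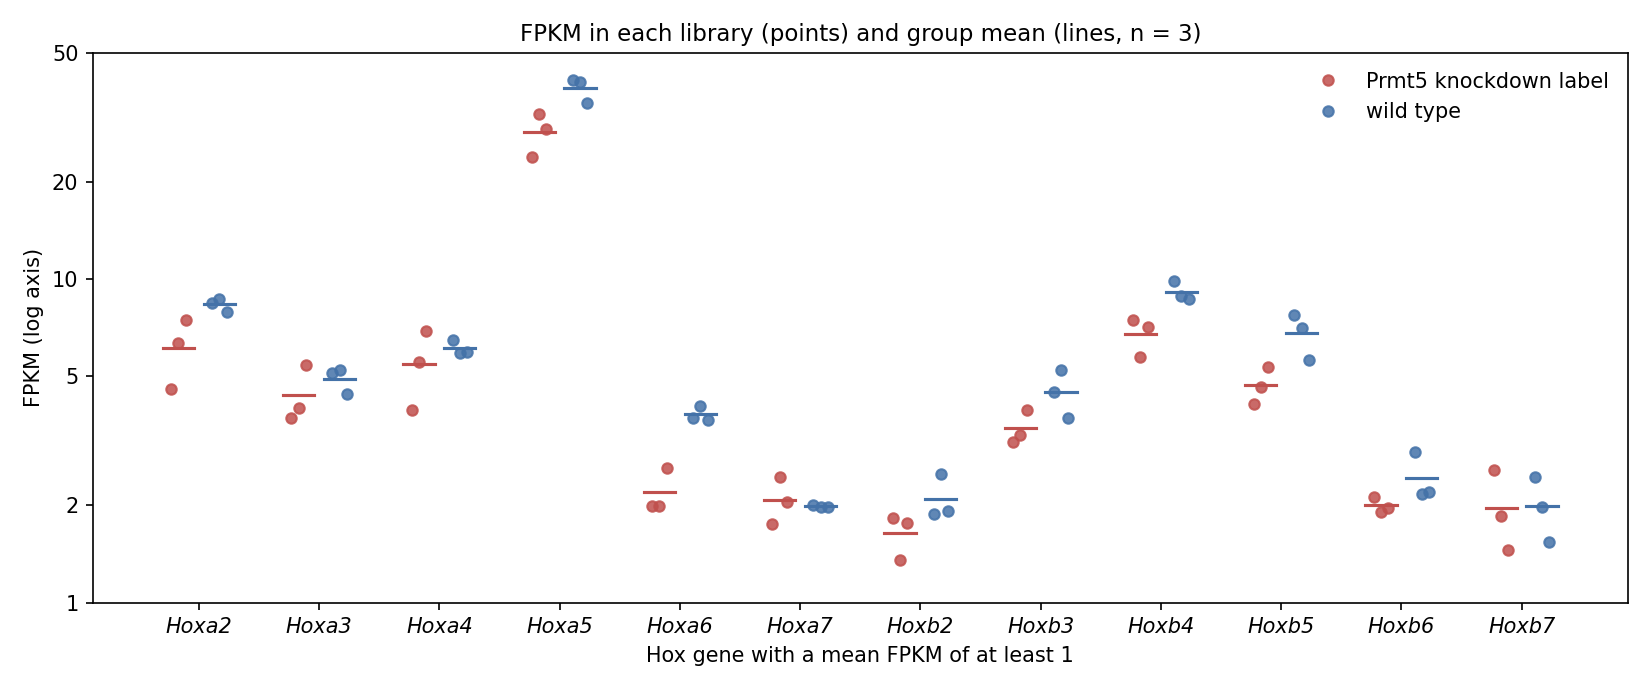
FPKM on a log axis in each library for 12 of the 13 Hox genes with a mean of at least 1 FPKM. Points are libraries, left of each pair knockdown-labelled lungs and right wild type lungs, and short lines are group means (n = 3 each). The pairs of Hoxa2, Hoxa5, Hoxa6, Hoxb2, Hoxb4, Hoxb5 and Hoxb6 do not overlap, and those of Hoxa7 and Hoxb7 lie on top of each other.

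The Hoxa and Hoxb clusters showed a similar ratio between the groups. Hoxa genes summed to 41.1, 53.9 and 55.1 FPKM in the knockdown-labelled lungs, against 68.4, 68.2 and 60.4 FPKM in wild type lungs, and the ratio of the means was 0.762. Hoxb genes summed to 22.15, 19.3 and 22.8 FPKM in the knockdown-labelled lungs, against 30.2, 28.7 and 24.2 FPKM in wild type lungs, with a ratio of 0.773. Neither cluster's sums overlapped, but the Hoxa sums without Hoxa5 did. The median log2 fold change was −0.25 over 7 tested Hoxa genes and −0.36 over 7 tested Hoxb genes. Among the tested genes, 3 Hoxa and 4 Hoxb genes stood lower without overlap.

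Hoxc and Hoxd genes, on chromosomes 15 and 2, were low in every library. Among the tested ones none stood lower or higher without overlap. Hoxc4, the most abundant Hoxc gene, had 0.77, 0.70 and 1.46 FPKM in the knockdown-labelled lungs, against 0.24, 0.35 and 1.10 FPKM in wild type lungs, from 32, 26 and 72 counts and from 10, 13 and 44 counts. Replicate 3 was the highest of each group, and the groups overlapped through it. The log2 fold change was 0.79 (−0.60 to 2.18, adjusted p = 0.549). Without wild type replicate 3 it was 1.71 (edgeR unadjusted p = 0.00997, adjusted p = 0.179).

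Hoxd8, the most abundant Hoxd gene, had 1.00, 0.53 and 1.46 FPKM in the knockdown-labelled lungs, against 0.65, 0.20 and 0.96 FPKM in wild type lungs (log2 fold change 0.71, −0.62 to 2.04, adjusted p = 0.575). Replicate 2 was lowest and replicate 3 highest in each group, and the groups overlapped. Hoxc6 had 9, 5 and 17 counts in the knockdown-labelled lungs, against 1, 5 and 4 in wild type lungs. Scaled for depth these were 0.556, 0.354 and 0.871 CPM in the knockdown-labelled lungs, against 0.0618, 0.353 and 0.256 CPM in wild type lungs, higher without overlap by a margin far below 1 count, and Hoxc6 was too low to test. The remaining Hoxd genes with a test, Hoxd4 and Hoxd9, had log2 fold changes of −0.06 each. Hoxd4 shares 52.3% of its exonic bases with other genes on the same strand, Hoxd3 among them, so the counts of Hoxd4 and Hoxd3 are uncertain. In replicate 3 of the knockdown-labelled group Hoxd3 had 25 counts, the highest of its 6 libraries, against 4 to 8 in wild type lungs.

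Markers of other tissues followed Hoxc4 and Hoxd8 in part, and did not follow Hoxd9, which had 0.49, 0.46 and 0.32 FPKM in the knockdown-labelled lungs, against 0.40, 0.33 and 0.57 FPKM in wild type lungs. The summed CPM of 12 neuron and Schwann cell markers was 97.6, 47.8 and 145 in the knockdown-labelled lungs, against 49.7, 36.9 and 59.3 in wild type lungs. Replicate 3 was highest in each group, as for Hoxc4 and Hoxd8. None of the 12 was at 0 throughout, and the groups overlapped. Of the 11 tested, 5 had an unadjusted p under 0.05 and were higher, against 8.48% of all genes tested. Skeletal muscle markers, 10 genes, summed to 887, 515 and 4025 CPM in the knockdown-labelled lungs, against 301, 89.3 and 1715 CPM in wild type lungs. Inside each group the skeletal muscle sums ran in the same order as Hoxd8, but over all 6 libraries they did not. The neuron and Schwann cell sums ran in the order of Hoxd8 over all 6 libraries. Stomach and oesophagus sums were also highest in replicate 3 of each group, at 522 CPM (knockdown-labelled) and 484 CPM (wild type). So were those of 8 airway cartilage markers, at 143 and 58.1 CPM. Hepatocyte markers were highest in replicate 3 of the knockdown-labelled group but in replicate 1 of wild type. With the neuron and Schwann cell level as a covariate, the log2 fold change of Hoxc4 was 0.08 and that of Hoxd8 −0.32. The heart muscle level gave 0.08 for Hoxc4 and 0.64 for Hoxd8, and the lung mesenchyme level gave −1.02 and −0.31. The heart muscle and lung mesenchyme means did not overlap between the groups, so label and list cannot be told apart in those fits. The part of these tissues in the values of Hoxc4 and Hoxd8 was not tested beyond this.

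**Figure D4:**
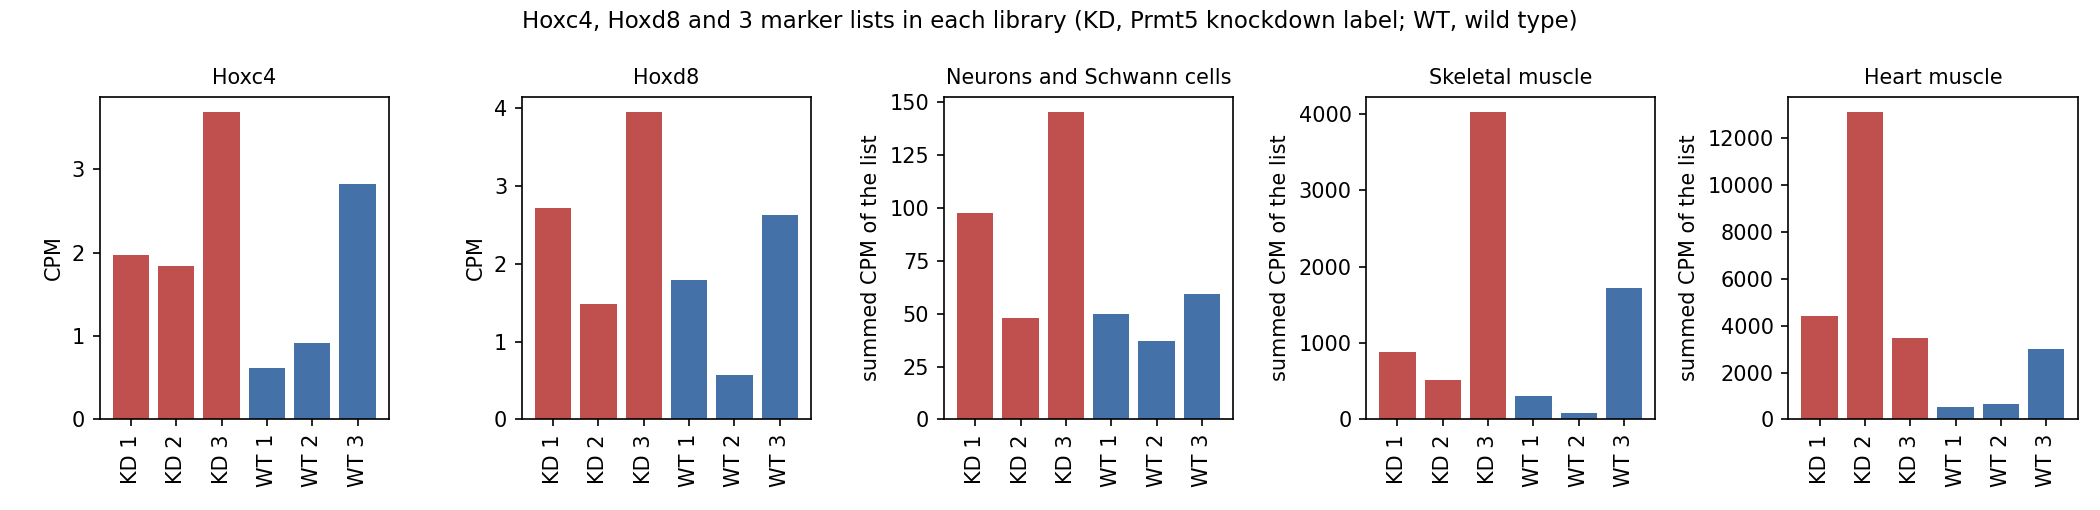
CPM of Hoxc4 and Hoxd8 and the summed CPM of the neuron and Schwann cell, skeletal muscle and heart muscle marker lists in each of the 6 libraries (bars, from 0). In each panel the 3 knockdown-labelled lungs are left of the 3 wild type lungs. Replicate 3 is the highest bar of each group for Hoxc4, Hoxd8 and the neuron and Schwann cell and skeletal muscle lists, whereas replicate 2 is the highest knockdown-labelled bar for heart muscle.

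Markers also moved beside the lower Hoxa and Hoxb values. Of the 14 markers of lung mesenchyme, where Hoxa5 is known to be expressed, 6 were lower and 1 was higher at an unadjusted p under 0.05. Among all genes tested, 8.52% were lower and 8.48% higher at that p. None of the 14 was at 0 throughout. Their summed CPM overlapped, at 7227, 6629 and 8151 in the knockdown-labelled lungs, against 6839, 7525 and 7638 in wild type lungs. The mean log2 CPM of the same list did not overlap, at 7.94, 7.92 and 7.97 in the knockdown-labelled lungs, against 8.15, 8.17 and 8.12 in wild type lungs. With that mean as a covariate the Hox median was 0.27, and in these 6 libraries the label and the list cannot be told apart. The 10 endothelial markers summed to 1933, 2345 and 1851 CPM in the knockdown-labelled lungs, against 3049, 2746 and 2700 CPM in wild type lungs. All 10 had a negative log2 fold change, against 47.1% of all genes tested. At an unadjusted p under 0.05, 8 of the 10 were lower, against 8.52% of all. Their median log2 fold change was −0.42, and their level was not used as a covariate. Of the 15 heart muscle markers, 12 were higher at an unadjusted p under 0.05, against 8.48% of all genes tested. Their mean log2 CPM did not overlap either, at 6.73, 8.88 and 6.64 in the knockdown-labelled lungs, against 3.29, 3.91 and 6.24 in wild type lungs. With that mean as a covariate the Hox median was −0.12, and here too the label and the list cannot be told apart. Their part in the Hox values was not tested further.

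Proteins that work with Hox proteins on DNA were expressed throughout. The 9 TALE homeodomain genes (Pbx, Meis and Pknox), whose proteins bind beside Hox proteins, were all tested, with a median log2 fold change of −0.13, 0 past the adjusted threshold, 2 lower and 0 higher at an unadjusted p under 0.05, where the shares of all genes tested were 8.52% and 8.48%. Pknox2 had 2.18, 2.06 and 2.44 FPKM in the knockdown-labelled lungs, against 3.00, 3.15 and 2.60 FPKM in wild type lungs (log2 fold change −0.40, adjusted p = 0.170), and Pknox1 had a log2 fold change of −0.19 (adjusted p = 0.227). The relatives of the Hox genes outside the clusters, the ParaHox and Evx genes, were near or at the floor, with 6 of 8 without a count in any library.

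Trithorax-type proteins keep Hox clusters on and Polycomb proteins keep them off. Of 16 Trithorax and activator genes, 0 passed the adjusted threshold, and 3 were lower and 1 higher at an unadjusted p under 0.05, against 8.52% lower and 8.48% higher among all genes tested. Kmt2a, a histone methyltransferase that maintains Hox expression in the mouse, had 7.68, 8.62 and 8.24 FPKM in the knockdown-labelled lungs, against 10.1, 10.2 and 10.4 FPKM in wild type lungs. The groups did not overlap, and the log2 fold change was −0.33 (−0.50 to −0.17, adjusted p = 0.135). Kat6a and Ash1l were the other lower ones, at −0.22 and −0.18, and Dpy30, a subunit of the Kmt2 complexes, was the higher one at 0.26.

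Of 22 Polycomb genes, 2 were lower and 0 higher at an unadjusted p under 0.05, with a median log2 fold change of −0.004. This is near the 8.52% lower among all genes tested and is not a result about Polycomb genes. The 2 genes were Phc3 (−0.26, adjusted p = 0.199) and Bmi1 (−0.22, adjusted p = 0.222), both subunits of the repressive complex that marks histone H2A. Ezh2, the methyltransferase of the other Polycomb complex, stood at −0.01. Retinoic acid switches on low-numbered Hox genes in the embryo, and of its 17 listed genes 15 were tested, with a median of 0.21, 0 lower and 1 higher at an unadjusted p under 0.05. A count of 1 in 15 is no more than the 8.48% higher among all genes tested. That gene, the receptor Rarb, had 1.13, 1.36 and 1.06 FPKM in the knockdown-labelled lungs, against 0.66, 0.54 and 1.00 FPKM in wild type lungs (log2 fold change 0.68, adjusted p = 0.266).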

How the data were processed

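Per the labels' protocols, mRNA was isolated with oligo(dT), fragmented and randomly primed for paired-end reading. Tools listed by the submitters' processing notes are HISAT2 2.0.1, HTSeq 0.6.1 and cutadapt 1.9.1. Build and strand setting are not stated in any source used here. The table as deposited by the authors has a raw count for each gene in each library beside an FPKM column, per the file headers. Recomputing FPKM from count, library total and exonic length gave differences of at most 0.005. Every row had an Ensembl gene identifier, but some rows had no gene symbol.

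Counts were tested with edgeR 4.0.16 in R 4.3.3 (quasi-likelihood, filterByExpr at its defaults, TMM, group as the only term) over the 17728 genes kept, with Benjamini-Hochberg adjustment over all of them and a two-sided threshold of 0.05 for the adjusted p. Levels between genes are FPKM, which is per length, and groups were called not overlapping on CPM scaled with the TMM factors. With 3 libraries a group, an exact permutation test cannot go below a p of 0.1, so it was not used for single genes. Intervals are at 95%. The fit was first tested on simulated counts. Per-library values are given for members with an unadjusted p under 0.05, the most abundant member of each cluster and the group 5 genes, and up to 4 genes with the smallest p are named per list. Other members (Hoxa4, Hoxa7, Hoxb2, Hoxb6 and Hoxb7) and Ezh2 were named after their values were seen. Single values of 1 member are not reported here, while counts, medians and sums include it. The members and the lists were chosen with earlier results of these data known. Exon overlap was taken by identifier from GENCODE M21, which differs from the annotation behind the counts. Hoxa13, for one, has 2472 exonic bases in M21 and 2400 as deposited. Alternatives were median-of-ratios and upper quartile scaling, no filter, a minimum mean of 1 FPKM, DESeq2 1.42.0, limma 3.58.1 on log2(FPKM + 1) and log2(FPKM + 0.1), embryo sex or a marker list's mean log2 CPM as a covariate, and leaving out each library.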

Additional observations from a re-analysis of the deposited data

How the results depend on the processing

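No paired analysis was possible because the sample titles carry no number that occurs in both groups, and the replicate numbers 1 to 3 used here only follow the order of deposit. The covariates for lung mesenchyme and for neurons and Schwann cells were chosen after seeing the data. Over all genes, edgeR called 6, against 81 with no filter, 814 with DESeq2, 3 with limma on log2(FPKM + 0.1), 1 with the heart muscle covariate and 0 with embryo sex, lung mesenchyme or neuron and Schwann cell covariates (2524, 886 and 1700 at an unadjusted p under 0.05). Leaving out libraries gave 0 to 17, with 17 without wild type replicate 3, 1 without knockdown-labelled replicate 3 and 0 without each of the others. Hox genes called were 0 except 1 (Hoxa5) with DESeq2. Those at an unadjusted p under 0.05 numbered 6, against 2 with the neuron and Schwann cell covariate, 0 with the heart muscle or lung mesenchyme covariate, and 3 to 7 with a library left out. All genes at that p numbered 1663 to 3287 with a library left out. Without wild type replicate 3, 5 of the 6 Hox genes were lower and Hoxc4 was higher. The Hox median log2 fold change of −0.22 became −0.35 with a minimum mean of 1 FPKM and −0.33 with limma on log2(FPKM + 0.1), which both keep 13 Hoxa and Hoxb genes and give no Hoxc or Hoxd value, 0.27 with the lung mesenchyme covariate, and −0.36 to −0.14 with a library left out. The lung mesenchyme covariate took the Hoxa median to 0.35, the Hoxb median to 0.70 and the Hoxc median, which is Hoxc4, to −1.02. The heart muscle covariate took the Hoxb median to −0.084. Leaving out libraries took the Hoxc median from 0.39 to 1.71.

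Of 274 single-gene values under alternatives, 34 changed sign, all with covariates or a library left out, and the cause was not tested. With embryo sex these were Hoxd9 (0.0067) and Hoxb8 (−0.11). With heart muscle they were Hoxa7 (−0.15), Hoxb7 (0.39), Hoxa3 (0.071) and Hoxd4 (0.21). With lung mesenchyme they were Hoxa2 (0.35), Hoxa3 (1.24), Hoxa4 (0.56), Hoxa6 (0.18), Hoxa7 (−0.35), Hoxb2 (0.94), Hoxb3 (1.16), Hoxb4 (0.19), Hoxb5 (0.70), Hoxb7 (0.18), Hoxc4 (−1.02), Hoxd4 (1.68) and Hoxd8 (−0.31). With neurons and Schwann cells they were Hoxd8 (−0.32), Hoxb7 (0.12), Hoxd9 (0.00045) and Hoxb8 (−0.24). With a library left out, ranges crossed 0 for Hoxa4 (−0.37 to 0.027), Hoxa7 (−0.091 to 0.18), Hoxb7 (−0.28 to 0.14), Hoxb8 (−0.091 to 0.28), Hoxd4 (−0.55 to 0.21) and Hoxd9 (−0.21 to 0.19). Ranges stayed negative for Hoxa5 (−0.58 to −0.34), Hoxa6 (−0.94 to −0.72), Hoxb4 (−0.51 to −0.35) and Hoxb5 (−0.67 to −0.44). Depth limits Hoxc and Hoxd genes most, since the tested ones had 8 to 77 counts a library and the others at most 25.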

Other observations

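Most other tested transcripts inside the clusters had negative log2 fold changes. The table holds 46 further rows between the first and last member of a cluster, of which 27 had no count and 11 were tested. Of these 11, 0 passed the adjusted threshold in edgeR, 10 had a negative log2 fold change and 2 were lower at an unadjusted p under 0.05, with a median of −0.34, where 47.1% of all genes tested were negative and 8.52% were lower at that p. Several of these rows overlap Hox genes, so they are not separate evidence. Hoxaas2, an antisense RNA of the Hoxa cluster, had 2.44, 2.21 and 2.33 FPKM in the knockdown-labelled lungs, against 2.73, 3.00 and 3.18 FPKM in wild type lungs (log2 fold change −0.36, adjusted p = 0.244). Hoxb3os, antisense to Hoxb3, had 0.55, 0.53 and 0.61 FPKM in the knockdown-labelled lungs, against 0.81, 0.91 and 0.66 FPKM in wild type lungs (log2 fold change −0.51, adjusted p = 0.301). Without a stated strand setting, these cannot be told apart from the genes they overlap.

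The exception was Gm11539, an RNA of the Hoxb cluster, at 7.69, 7.86 and 8.11 FPKM in the knockdown-labelled lungs, against 6.48, 3.49 and 7.05 FPKM in wild type lungs (log2 fold change 0.46, adjusted p = 0.452). Hotair, in the Hoxc cluster, had no count in any library.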
